A study of Mus musculus with 12 samples.

Results

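The 116 genes described here had their highest level in NGN3+ spermatogonia, the population between GFRα1+ and KIT+ cells. They were chosen from 36413 gene names on the array (0.319%), each name represented by its brightest probe over the sorted arrays. The log2 mean of the 3 NGN3+ arrays was at least 1 above both the GFRα1+ mean and the KIT+ mean, at least −2, and no lower than the mean of whole testes. A level of 0 is the 75th percentile of the probes on an array, and a difference of 1 is a factor of 2. NGN3+ against each of the other groups therefore defines the members and is given as a description, with no test. The rule did not compare KIT+ with GFRα1+ cells, although it used the means of the same arrays.

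The study compared 4 groups of 3 Agilent one-colour arrays, all from C57BL/6 mice aged 10 to 11 weeks. GFRα1+ spermatogonia were the GFP+ cells of GFRα1-EGFP reporter mice, each sample from 1 mouse. NGN3+ and KIT+ spermatogonia were the GFP+/KIT− and GFP+/KIT+ cells of Ngn3-EGFP mice, in which GFP outlasts expression of the gene. Each NGN3+ sample was pooled from 2 mice and each KIT+ sample came from 1. Whole testes served as unsorted tissue. A sorted array was made from about 10000 to 20000 cells and a whole testes array from 500000. GFRα1+ cells and NGN3+ cells thus came from different reporter lines, and line and population cannot be told apart. In bulk RNA, fewer cells of a type and less RNA per cell cannot be told apart either.

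In the mouse testis, undifferentiated spermatogonia that express GFRα1, the receptor subunit for GDNF, act mainly as stem cells and give rise to NGN3+ progenitors. NGN3 is a basic helix-loop-helix transcription factor better known from pancreas and nervous system. In response to retinoic acid, NGN3+ cells become KIT+ differentiating spermatogonia, and the retinoic acid receptor RARγ is found in the NGN3+ compartment.

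The sequences before the starts of 4 of the 5 members on a list of progenitor genes are shown because these genes carry the pattern that names the population. Each line gives 250 bases ending at the base before a start in RefSeq on GRCm38.p6, 5′ to 3′ along the gene. Capitals mark the searched letters CAGATG or CAGCTG, forms of the E-box to which basic helix-loop-helix factors bind, and AGGTCA, the core of retinoic acid response elements, on either strand.
Neurog3, chr10:62132840-62133089, plus strand: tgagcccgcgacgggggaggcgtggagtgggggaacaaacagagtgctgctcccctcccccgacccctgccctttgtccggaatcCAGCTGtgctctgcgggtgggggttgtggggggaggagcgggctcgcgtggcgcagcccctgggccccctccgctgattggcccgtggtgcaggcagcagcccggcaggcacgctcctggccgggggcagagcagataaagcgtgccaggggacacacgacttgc
Rarg, outer start, chr15:102257523-102257772, minus strand: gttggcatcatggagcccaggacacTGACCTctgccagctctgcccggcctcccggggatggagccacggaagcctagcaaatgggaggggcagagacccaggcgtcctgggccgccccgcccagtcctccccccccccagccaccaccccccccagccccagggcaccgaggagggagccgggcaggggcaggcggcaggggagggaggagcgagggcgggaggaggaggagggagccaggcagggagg
Rarg, inner start, chr15:102246501-102246750, minus strand: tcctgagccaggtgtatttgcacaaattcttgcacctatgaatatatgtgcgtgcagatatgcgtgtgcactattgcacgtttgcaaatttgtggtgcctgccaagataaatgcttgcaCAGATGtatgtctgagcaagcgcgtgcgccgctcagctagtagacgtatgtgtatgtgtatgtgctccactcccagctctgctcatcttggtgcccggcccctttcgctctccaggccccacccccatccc
Upp1, first of 3 starts, chr11:9117758-9118007, plus strand: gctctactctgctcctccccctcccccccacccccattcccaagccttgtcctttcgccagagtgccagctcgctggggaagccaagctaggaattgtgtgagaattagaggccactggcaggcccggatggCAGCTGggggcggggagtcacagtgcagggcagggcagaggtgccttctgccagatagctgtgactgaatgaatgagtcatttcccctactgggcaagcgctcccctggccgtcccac
Utf1, chr7:139943606-139943855, plus strand: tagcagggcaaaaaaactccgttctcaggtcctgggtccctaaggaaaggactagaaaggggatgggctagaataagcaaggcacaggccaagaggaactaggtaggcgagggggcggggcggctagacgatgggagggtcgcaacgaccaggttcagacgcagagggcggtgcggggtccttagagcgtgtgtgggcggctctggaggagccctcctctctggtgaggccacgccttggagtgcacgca

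Counting the base before a start as −1, CAGCTG began at −165 in Neurog3 and at −118 from the first start of Upp1. From the last start of Upp1, CAGATG was at −213 and CAGCTG at −23. Pou5f1, the fifth member on the list, had AGGTCA at −33 from one start and CAGCTG at −143 from another. TGACCT, which is AGGTCA on the other strand, began at −225 from the outer start of Rarg, and CAGATG at −131 from its inner start. None of the searched letters was in the window of Utf1. RefSeq promoters could be matched to 70 member genes, with 93 starts. For the shares and the GC content each window also held the 50 bases after the start. CAGATG was in 21.5% of the 93 windows against 17.2% of all 32851 promoters of the same length. CAGCTG was in 25.8% against 16.3%, and AGGTCA in 8.6% against 16.3%. Some genes have several starts close together. Counted by gene, CAGATG was in 24.3% of members against 19.2% of all genes, CAGCTG in 27.1% against 18.3% and AGGTCA in 11.4% against 18.1%. The median GC content was 57.0% in the members' windows and 52.67% in all windows. These shares describe letters and not bound sites.

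Rarg and Neurog3, the genes given as markers of the population, both met the rule. Rarg encodes RARγ. Its log2 level was 2.01, 2.28 and 2.16 on the GFRα1+ arrays, 4.12, 3.70 and 3.54 on the NGN3+ arrays, 2.66, 2.69 and 2.56 on the KIT+ arrays and −0.77, −0.99 and −0.91 in whole testes. The 4 groups did not overlap, and the order was NGN3+, KIT+, GFRα1+ and whole testes. The NGN3+ mean was 1.64 above GFRα1+ and 1.15 above KIT+.

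Neurog3 was at 3.92, 4.33 and 4.15 in GFRα1+ cells, 5.64, 5.28 and 4.79 in NGN3+ cells, 2.92, 2.82 and 2.60 in KIT+ cells and −0.51, −1.51 and −1.13 in whole testes. The groups again did not overlap, but here GFRα1+ came next after NGN3+. Another Neurog3 probe gave another order of the outer groups. It was not well above background on any GFRα1+ array, with a mean of −5.56, and stood at −2.80 in NGN3+ and −4.14 in KIT+ cells. Both probes placed NGN3+ highest, and KIT+ against GFRα1+ depended on the probe.

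Upp1, which encodes uridine phosphorylase, was at 2.07, 2.44 and 2.94 in GFRα1+ cells, 4.31, 3.73 and 3.58 in NGN3+ cells, 1.01, 1.07 and 0.57 in KIT+ cells and −2.83, −4.05 and −2.84 in whole testes. Its groups fell in the same order as those of Neurog3 without overlap. Utf1, a chromatin-associated transcription factor of pluripotent cells, was at 0.40, 0.58 and 0.24 in GFRα1+ cells, 2.002, 1.50 and 1.60 in NGN3+ cells and 0.34, 0.62 and 0.12 in KIT+ cells. The NGN3+ arrays of Utf1 stood clear of 2 other groups that overlapped each other. Pou5f1, the pluripotency factor OCT4, was at −0.78, −1.24 and 0.07 in GFRα1+ cells, 0.63, 0.41 and 0.23 in NGN3+ cells and −1.44, −1.42 and −1.56 in KIT+ cells. The lowest NGN3+ array and the highest GFRα1+ array of Pou5f1 were close. This was GFRα1+ array 3, which shared a slide with the NGN3+ arrays, and against it alone the peak height of Pou5f1, its NGN3+ mean over the higher of the other sorted means, was 0.36 in place of 1.07. On the same terms Upp1 had 0.93 in place of 1.39. Gm5712, listed in RefSeq as the Pou5f1-related sequence Pou5f1-rs4, was a member too, at −1.81 ± 0.24 (SD, n = 3) in NGN3+ cells, and the arrays may not separate the 2 copies.

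**Figure D1:**
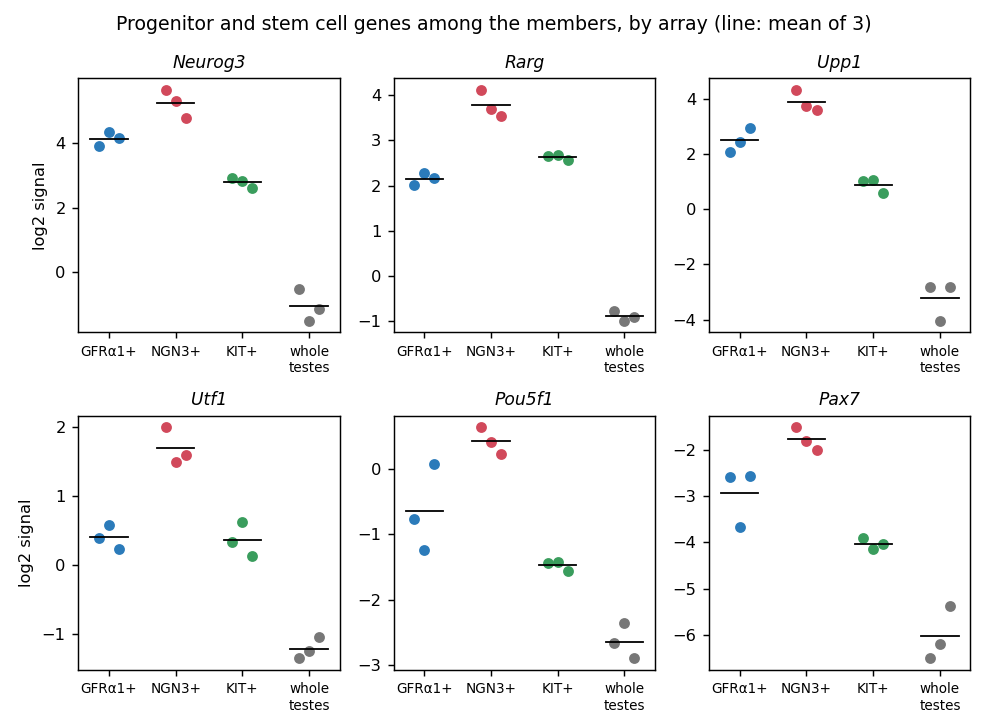
Log2 levels of 6 members by array, one point per array and a line at the mean of 3, with 0 at the 75th percentile of an array and a separate scale in each panel. The NGN3+ arrays of each gene lie above its GFRα1+ and KIT+ arrays, and Neurog3 and Rarg differ in which of the outer groups comes next.

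Pax7, a transcription factor of a rare set of undifferentiated spermatogonia and of muscle stem cells, was the only member from a list of 20 stem cell and GDNF-state genes. It was at −2.59, −3.66 and −2.56 in GFRα1+ cells, −1.52, −1.81 and −2.004 in NGN3+ cells and −3.91, −4.14 and −4.03 in KIT+ cells. It was well above background on 2 GFRα1+ arrays and 2 KIT+ arrays and was not tested between them. The other genes of that list ran differently. Of its 18 genes tested, all 18 were lower in KIT+ than in GFRα1+ cells, with a median difference of −5.00. Over all 23057 genes tested, 39.3% were lower. The NGN3+ mean was the highest in 2 of the 20 genes on the list.

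A list of 20 progenitor genes on the array held 5 members, namely Neurog3, Rarg, Upp1, Utf1 and Pou5f1. The NGN3+ mean was the highest of the sorted means in 13 of the 20, or 65%, against 19.1% of all gene names. The 5 members are among the 13 by the rule, and the list was chosen with earlier results known. The share is therefore a description. Ddit4, which encodes the mTORC1 inhibitor REDD1, had an NGN3+ mean 0.86 above GFRα1+ and 3.10 above KIT+, short of the threshold. Sox3, a transcription factor needed for progenitors to differentiate, was at 5.87 in NGN3+, 5.25 in GFRα1+ and 4.89 in KIT+ cells. Nanos3, an RNA-binding protein of germ cells, was at 4.65, 4.13 and 1.87 in these groups. Between KIT+ and GFRα1+ cells, 13 of the 20 genes were lower in KIT+ and 2 were higher, by limma with Benjamini-Hochberg adjustment over all genes tested. Over all 23057 genes tested, 39.3% were lower and 26.6% higher.

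Among the 6 genes for retinoic acid receptors, Rarg was the only member. Rara was at 2.24, 2.47 and 2.52 in GFRα1+ cells, 2.51, 2.24 and 2.02 in NGN3+ cells and 2.03, 2.35 and 1.96 in KIT+ cells. The 3 groups of Rara overlapped. Rarb had a mean of −3.03 in GFRα1+, −3.17 in NGN3+ and −1.53 in KIT+ cells. Rxrb was at 4.39, 4.42 and 4.94 in the same order, and Rxra at −0.61, −0.29 and −0.09. Rxrg was at 0.998, 0.62 and 0.40, its highest level being 1.84 in whole testes. In the test of KIT+ against GFRα1+ cells, Rarb, Rarg, Rxra and Rxrb were higher in KIT+, Rxrg was lower, and Rara was not called. Over all 23057 genes tested, 26.6% were higher and 39.3% lower. None of 37 genes for retinoid metabolism and binding met the rule, and their NGN3+ mean was the highest in 5 of the 37.

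**Figure D2:**
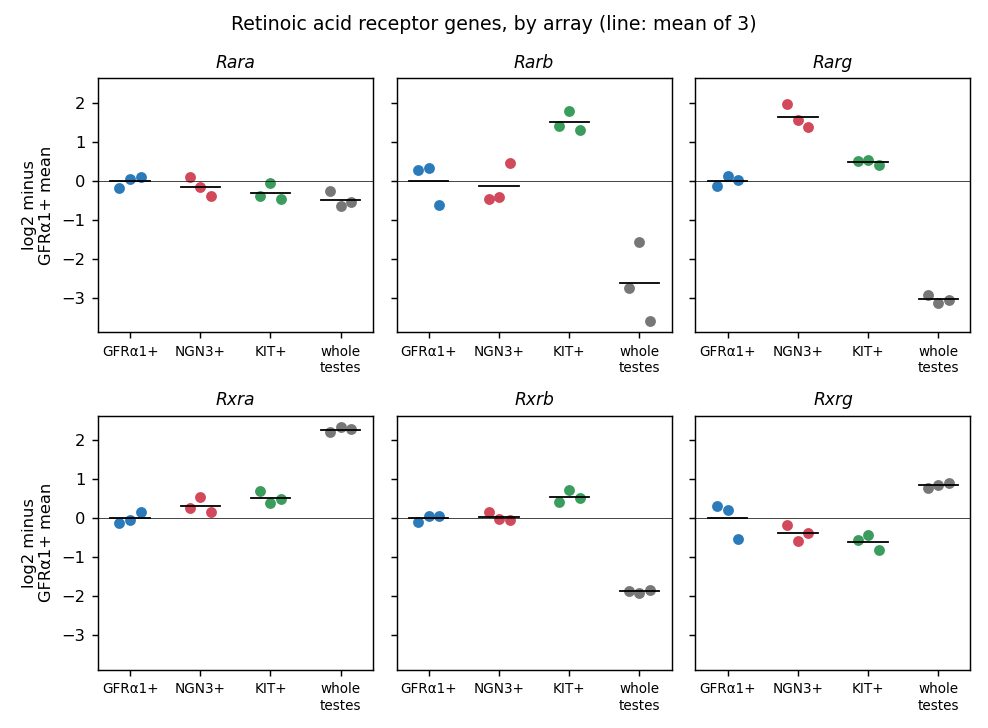
The 6 retinoic acid receptor genes by array, as log2 level minus the gene's GFRα1+ mean, with a line at the mean of 3 arrays. Rarg alone has NGN3+ as its highest sorted group, and Rxra and Rxrg are highest in whole testes.

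Over all members the rise from GFRα1+ to NGN3+ cells was the smaller step. The median NGN3+ mean was 0.28, against −1.52 in GFRα1+, −2.36 in KIT+ and −3.07 in whole testes. The median difference was 1.39 against GFRα1+, 2.44 against KIT+ and 3.63 against whole testes. GFRα1+ was the nearer of the outer groups for 107 members and KIT+ for 9. The median peak height was 1.36, 42 members reached 1.5, and 17 reached 2. Nos1ap at 1.0012 and Gata3 at 1.0023 were the members nearest the threshold. Just outside it lay Stmn4 at 0.9922 and Pik3r6 at 0.9893. With normexp background correction 69 names met the rule, 63 of them among the 116.

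The NGN3+ signal was well above background on all 3 arrays for 113 members. The same held for 105 members in GFRα1+, 100 in KIT+ and 71 in whole testes, where 27 members were not well above background on any array. Both the GFRα1+ and KIT+ means were above whole testes for 79 members. For 22 members both lay below whole testes, while the rule itself kept the NGN3+ mean from doing so.

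**Figure D3:**
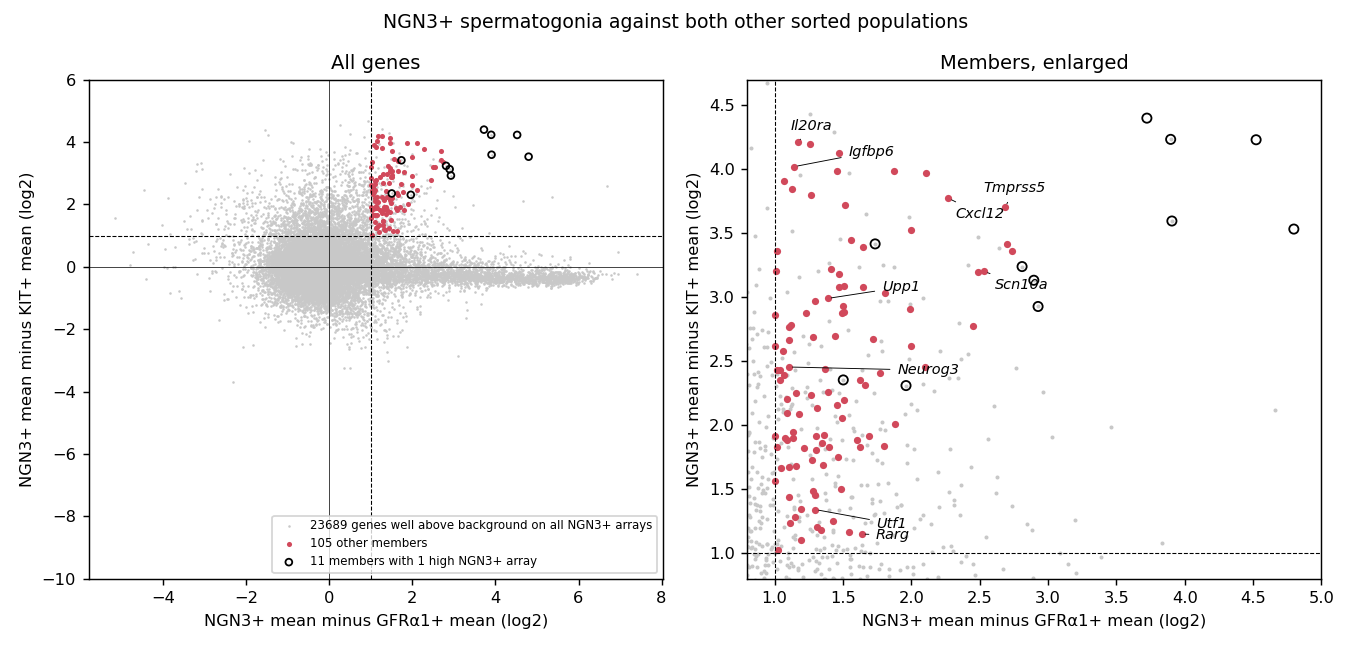
NGN3+ mean minus GFRα1+ mean (horizontal) against NGN3+ mean minus KIT+ mean (vertical), in log2, for 23689 genes well above background on all NGN3+ arrays, with the members enlarged on the right. Dashed lines mark a difference of 1; grey points past both lines are genes under a level of −2 or below whole testes, and open circles are the 11 members that rest on 1 NGN3+ array.

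The members were separated into 105 and 11 by their behaviour across the NGN3+ arrays, a split made after the values were seen. In 11 members the NGN3+ arrays spanned 5.65 or more, because 1 array was very bright. In the other 105 the span was at most 1.27. Sh2d2a, a T cell adaptor, was at 8.36 on NGN3+ array 1 but −2.98 and −3.44 on the others, with −3.74 to −2.89 in GFRα1+ cells. Impdh1, which makes guanine nucleotides, was at 7.87 on NGN3+ array 1 but 2.31 and 2.23 on the others. In both genes the remaining NGN3+ arrays lay within the range of the GFRα1+ and KIT+ arrays. Ankrd33, Tmc2, Hrc, Mtif3 and 5 further members also had 1 bright array, 5 of the 11 on array 1 and 6 on array 3. In Hrc the remaining NGN3+ arrays, at −0.27 and −0.59, lay above all GFRα1+ and KIT+ arrays, the highest of which was −0.91. Other probes of Sh2d2a, Mtif3 and Ankrd33 lacked the bright array. The 5 members with the largest peak height, from 3.53 to 4.23, were all of this kind, and the largest among the other 105 was 2.74. No spot was saturated. Leaving out the spots that the scanner software marked as outliers removed none of the 11. That step kept a marked spot where it was the only spot of its probe, and 59305 spots held 55681 probes. It therefore does not show whether the bright spots were marked. Counts over 116 or 108 members include these 11 genes.

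All 3 NGN3+ arrays exceeded all 6 GFRα1+ and KIT+ arrays in 105 members, 104 of them among the 105 with an even signal. Over all names the share was 3.36%, and over the names that could meet the level of −2 it was 3.82%. The rule used this contrast, so the count describes the members only.

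NGN3+ array 1 was the highest NGN3+ array for 101 of the 105 members. Over all 23689 genes well above background on the NGN3+ arrays, it was the highest for 52.8%. The median level of all 116 members was 0.55, −0.08 and 0.08 on the 3 NGN3+ arrays. On array 1, 19 of 20 progenitor genes and all 16 bright stem cell genes also exceeded the mean of the other NGN3+ arrays. Their median excess was 0.45 and 0.38. The same held for 14781 of the 23689 genes. By contrast, 29 of 30 spermatid genes were lower, by a median of 0.66. Without array 1, 76 of the 105 members still reached a height of 1, and their median was 1.17 in place of 1.30. Neurog3 then had 0.90 and Rarg 0.99. The part of this array's composition in the members' heights was not tested.

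**Figure D4:**
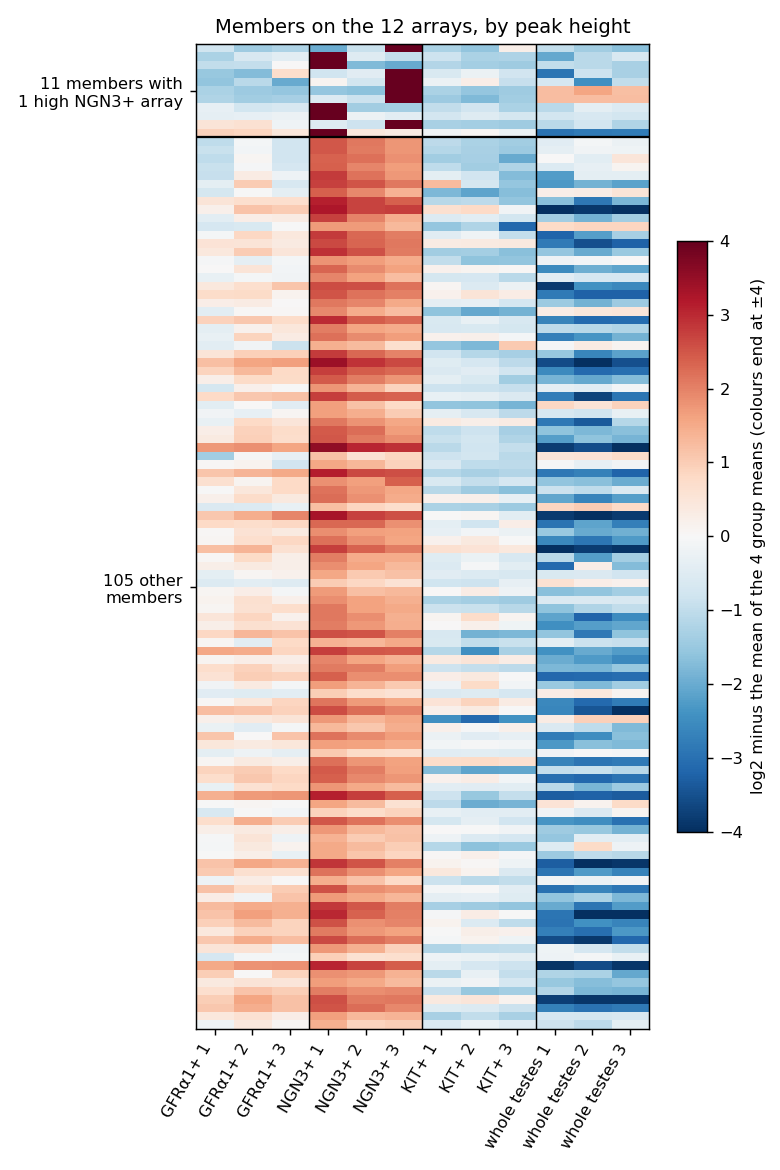
All 116 members (rows) on the 12 arrays (columns), as log2 level minus the mean of the gene's 4 group means, ordered by peak height within each block, with colours ending at 4 in either direction. The upper block holds the 11 members with 1 bright NGN3+ array; in the 105 below, the 3 NGN3+ columns are the reddest, the first most of all, and whole testes are blue for most.

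The tallest even peaks belonged to genes of varied function. Ifitm1, an interferon-induced membrane protein, was at −1.25, −0.50 and −1.13 in GFRα1+ cells, 2.12, 1.71 and 1.38 in NGN3+ cells, −1.52, −1.69 and −1.83 in KIT+ cells and −0.73, −0.53 and −0.55 in whole testes. Its NGN3+ mean was 6.49-fold the next sorted mean. Gm7676, on another chromosome, had almost the same values on every array, and its 2.74 and the 2.70 of Ifitm1 may be signal of the same transcript. Tmprss5, a serine protease of the membrane, was at −0.75, −0.91 and −1.26 in NGN3+ cells and between −5.12 and −3.02 in the other sorted cells, where 1 of 3 arrays in each group was well above background.

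Ifitm1 and 4 further members are known as interferon-induced genes. They were picked out after the values were seen, and with no list of such genes their number has no background to be read against. Oasl2 was at 3.04 ± 0.19 in GFRα1+, 4.04 ± 0.29 in NGN3+ and 1.19 ± 0.20 in KIT+ cells. Gbp2, a guanylate-binding protein, was at 1.20 ± 0.11, 2.27 ± 0.40 and −1.64 ± 0.13 in the same order. Isg15, a ubiquitin-like modifier, was at −0.31 ± 0.47, 1.19 ± 0.45 and −1.01 ± 0.05. Zbp1, a sensor of nucleic acids, was at −2.02 ± 0.42, −0.02 ± 0.64 and −2.63 ± 0.15. In all 4 the NGN3+ arrays did not overlap with the other sorted groups, which held for 104 of the 105 members with an even signal.

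The symbol families of potassium, calcium and sodium channels held 4 members of 135 names, or 2.96%, against 0.474% of all gene symbols. This was the highest share of the symbol families counted. Solute carriers held 1 member of 345 names, and several families held none. Scn10a, a sodium channel of sensory neurons, was at −1.97, −1.10 and −1.74 in GFRα1+ cells, 1.31, 0.87 and 0.60 in NGN3+ cells and −2.08, −2.46 and −2.27 in KIT+ cells. Its neighbour Scn11a, with a probe 145.2 kb away, was at −2.09 ± 0.31, −0.79 ± 0.27 and −2.60 ± 0.09. Kcnj12, an inward-rectifier potassium channel, was at −2.05 ± 0.46, −0.06 ± 0.38 and −2.96 ± 0.40. Cacnb3, a calcium channel subunit, was at −0.41 ± 0.09, 1.02 ± 0.27 and −0.23 ± 0.12. All 4 had NGN3+ arrays clear of the others, like 104 of the 105 members with an even signal.

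The members also included some transcription factors of development, described here for their known role and not as a group tested. Nr2e1, the orphan nuclear receptor TLX of neural stem cells, was at 0.60, 0.69 and 0.45 in GFRα1+ cells, 2.43, 1.93 and 1.79 in NGN3+ cells and −2.22, −1.92 and −2.08 in KIT+ cells. No whole testes array held a Nr2e1 signal well above background. Hoxb2, a homeobox gene, was at −1.09 ± 0.20, 0.41 ± 0.22 and −2.52 ± 0.16 in GFRα1+, NGN3+ and KIT+ cells. Six4, another homeobox gene, was at 0.09 ± 0.20, 1.54 ± 0.32 and −2.44 ± 0.09. Gata3, a zinc finger factor, was at −1.97 ± 0.18, −0.96 ± 0.17 and −3.58 ± 0.17. Tcfap2c, now Tfap2c, which is active in early germ cells, was at −0.12 ± 0.16, 1.05 ± 0.32 and −1.03 ± 0.19. In these 5 genes NGN3+ was highest, GFRα1+ came next and KIT+ was lowest of the sorted groups. Nkx1-1 was at 1.26 ± 0.30, 2.27 ± 0.28 and 0.35 ± 0.18, and 2 further names with probes at the same locus repeated its pattern. The symbol families for Sox, Fox, Hox, Klf, Pou and Nkx factors, which do not include Nr2e1, Six4, Gata3 or Tcfap2c, held 3 members of 152 names, or 1.97%, against 0.474% of all gene symbols.

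Wnt signaling gave 2 members of 68 genes listed, beside the 0.474% of all gene symbols. Lef1, which acts with β-catenin on target genes, was at −0.11, 0.10 and −0.05 in GFRα1+ cells, 1.34, 1.05 and 0.996 in NGN3+ cells, −0.15, −0.13 and −0.18 in KIT+ cells and 0.16, 0.29 and 0.21 in whole testes. Its arrays agreed closely within groups, and another name 0.188 kb beyond its probe showed the same peak at a height of 1.20. Sfrp4, a secreted Wnt antagonist, was at −2.92 ± 0.19, −1.86 ± 0.39 and −4.44 ± 0.58 in GFRα1+, NGN3+ and KIT+ cells, where 1 KIT+ array was well above background. Of 52 genes of the Wnt list tested, 11 were higher and 24 lower in KIT+ than in GFRα1+ cells. Over all 23057 genes tested, 26.6% were higher and 39.3% lower, so these counts do not set the list apart.

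Secreted and stress-related products were also present. Cxcl12, the chemokine ligand of CXCR4, was at 0.27, 0.98 and 0.57 in GFRα1+ cells, 3.38, 2.90 and 2.36 in NGN3+ cells, −0.82, −1.13 and −0.74 in KIT+ cells and 1.20, 1.28 and 1.50 in whole testes. Igfbp6, a binding protein for insulin-like growth factors, was at 4.10, 4.22 and 4.01, then 5.66, 5.24 and 4.86, then 1.46, 1.10 and 1.13 in the sorted groups. Trib3, a pseudokinase induced by stress, was at 2.70 ± 0.20, 3.74 ± 0.30 and 1.39 ± 0.16. For each of these 3 genes the NGN3+ arrays did not overlap with the others, again like 104 of the 105 members with an even signal. Trib3 was the only member among 28 genes for mTORC1 brakes and the stress response, and none of 27 immediate early genes, 37 cyclin and kinase inhibitor genes, 34 Notch genes or 70 growth factor receptor genes was a member. At a share of 0.474%, lists of these sizes would hold less than 1 member each, so these counts of 0 do not set the lists apart. Neurog3 was the only member among 55 genes of the neurogenic helix-loop-helix network.

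Some members, such as Cxcl12, Col1a1 and Cd34, are known from stromal or vascular cells, so the markers of other testis cells were read beside them. None of the markers for peritubular myoid, endothelial, Leydig, Sertoli, white or red blood cells was a member. The rule barred any gene with an NGN3+ mean below whole testes, so this absence does not measure such cells. The summed linear level of 9 myoid markers was 24.3, 32.1 and 17.8 on the NGN3+ arrays, 4.31 to 5.28 on GFRα1+ arrays, 16.4 to 21.4 on KIT+ arrays and 169 to 193 in whole testes. Of the 9, Lmod1 was not well above background in NGN3+ cells, nor were Myh11, Des and Lmod1 in GFRα1+ cells. The NGN3+ mean was the highest sorted mean in 6 of the 9, among them Acta2 at −4.24 in GFRα1+, 1.11 in NGN3+ and −1.12 in KIT+ cells. The myoid sum was highest on NGN3+ array 2, and Cxcl12, Col1a1 and Cd34 were highest on array 1. Of 8 bright myoid markers, 5 were higher on array 1 than on the mean of the other NGN3+ arrays. All 8 bright endothelial markers were also higher there, by a median of 0.43, as were all 3 bright Leydig markers, by 0.44. The median over all bright genes was 0.10, and 14781 of these 23689 genes were higher there. That share is close to the share of the myoid markers. The sum of 11 endothelial markers was 19.4 to 26.1 in NGN3+ cells, where array 1 was highest, 26.3 to 29.3 in GFRα1+ and 24.6 to 29.5 in KIT+ cells. Of 18 leukocyte markers, 6 were not well above background on any NGN3+ array, and 5 of 8 Leydig markers were not. The spermatid sum was 1425 to 1797 in NGN3+ and 1726 to 2222 in KIT+ cells but 34.6 to 72.6 in GFRα1+ cells. No spermatid or spermatocyte marker was a member, and the same limit applies, with a spermatid sum of 6819 to 8213 in whole testes. The part of these cells in the members' levels was not tested.

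KIT+ against GFRα1+ cells, which the rule did not compare, asked on which side of the peak a member was higher. Of 108 members tested, 73 were lower in KIT+ cells, or 67.6%, against 39.3% of all 23057 genes tested. Only 2 were higher, or 1.85%, against 26.6%, and 33 were not called (limma over the 9 sorted arrays, Benjamini-Hochberg adjusted p below 0.05). These shares are not independent of the choice of members. A gene highest in KIT+ or in GFRα1+ cells could not meet the rule, nor could one with an NGN3+ mean below whole testes. All 30 spermatid genes, of which none was a member, were higher in KIT+ cells. The median difference was −0.82 in the members tested and −0.15 in all genes tested. With the slide as a block, 57 of the 108 members were lower and none was higher, against 7388 genes lower and 4838 higher among all tested. On the slide that holds GFRα1+ array 3 with all NGN3+ and KIT+ arrays, 57 of 110 members were lower, against 7292 of 23616 genes tested. GFRα1+ is then 1 array, assumed to vary like the other groups.

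The 73 lower members fell by 0.46 to 3.04 on the log2 scale, with a median of 1.38. Il20ra, a cytokine receptor subunit, had the largest difference at −3.04 (SE 0.202, adjusted p = 2.83e-06 by limma), with 1 of 3 KIT+ arrays well above background. ENSMUST00000098234, a name without a symbol, was not well above background on any KIT+ array and was at least 7.30-fold lower there (adjusted p = 7.3e-05). Igfbp6 differed by −2.88 (SE 0.197, adjusted p = 3.34e-06) and Gbp2 by −2.84 (SE 0.188, adjusted p = 2.76e-06). Nhedc2, a sodium-proton exchanger now named Slc9b2, differed by −2.72. Nr2e1 followed at −2.66 and Cass4, a scaffold protein, at −2.54, the latter well above background on 1 KIT+ array. These 6 genes with a symbol kept their direction and their call under every alternative run. Neurog3 differed by −1.35 (SE 0.214, adjusted p = 0.000531), for its brighter probe.

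In a smaller set the levels on both sides of the peak were not called different. Utf1 differed by −0.04 (SE 0.178, adjusted p = 0.839), Lef1 by −0.13 (SE 0.117, adjusted p = 0.342) and Cacnb3 by 0.18 (SE 0.147, adjusted p = 0.317). Gfi1, a transcriptional repressor of blood stem cells, differed by 0.09 (SE 0.19, adjusted p = 0.692). These differences are small beside the peaks of 1.10 to 1.30, but a p above the threshold does not show equal levels. Of the 33 members not called, 25 had an even signal on the NGN3+ arrays.

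Rarg was the only member with a gene symbol that was higher in KIT+ than in GFRα1+ cells. The difference was 0.49 (SE 0.154, adjusted p = 0.0206 by limma). It kept its sign under every alternative, from 0.42 to 0.62, but was not called with the slide as a block, at 0.475 (adjusted p = 0.112), or within that slide (adjusted p = 0.124). The other was a noncoding interval on chromosome 5 at 0.38 (SE 0.143, adjusted p = 0.0418).

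**Figure D5:**
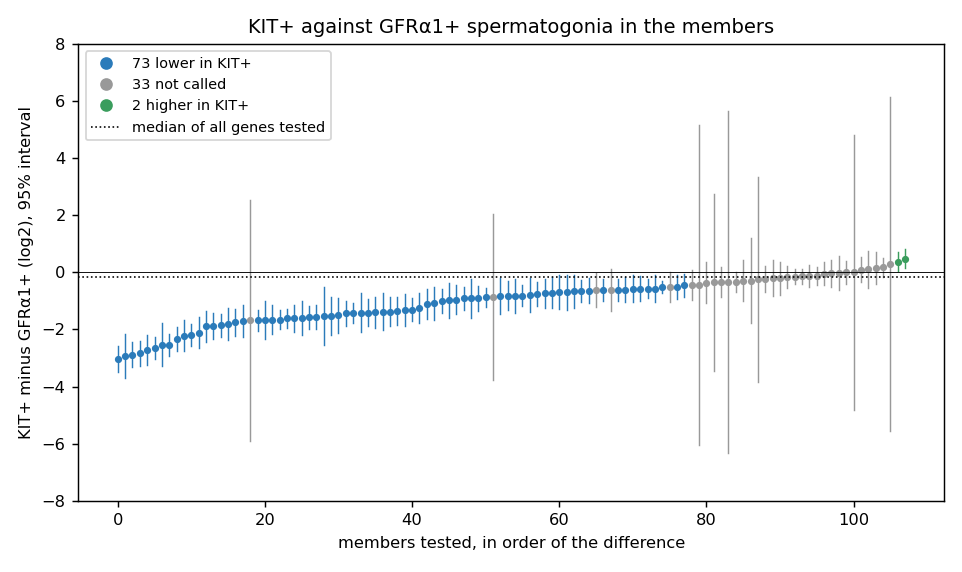
KIT+ mean minus GFRα1+ mean in log2 for the 108 members tested, in order of the difference, with 95% intervals from limma; colours mark the call and the dotted line the median of all 23057 genes tested. Most intervals lie below 0, Rarg is the rightmost point, and the few very wide intervals are members with 1 bright NGN3+ array.

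Some member names read the same place in the genome (positions of probes in mm9, as the array files give them). The 116 names fell into 110 loci at a spacing of 20 kb, because 4 loci held 2 or 3 names each. Chromosome 15 held 13 names, or 11.2% of the members against 3.72% of all names with a probe position. They lay at 10 loci, among them Ankrd33 with its 1 bright array. One stretch there holds Igfbp6 at chr15:101979852-101979911, Rarg at chr15:102065371-102065430 and 3 transcript names between chr15:102104187 and 102104551. The latter lie on the plus strand, 38.8 kb from the probe of Rarg, which is on the minus strand. The tallest peak among them, of ENSMUST00000066324, was at −2.15, −2.19 and −2.33 in GFRα1+ cells, −0.06, −0.36 and −0.59 in NGN3+ cells, −2.38, −2.35 and −2.30 in KIT+ cells, and no whole testes array was well above background. It shared the NGN3+ maximum of Rarg but not its higher level in KIT+ over GFRα1+ cells, the difference being −0.12 (SE 0.139, adjusted p = 0.459 by limma). Other probes of another of the 3 names, starting at chr15:102101648 and 102101708, did show it. They stood at −4.42 and −3.62 in GFRα1+, −1.97 and −2.21 in NGN3+ and −2.82 and −2.70 in KIT+ cells. Of their GFRα1+ arrays, 1 and 2 of 3 were well above background. Another probe of the third name, at −1.75, 0.02 and −1.89, did not, so KIT+ against GFRα1+ depended on the probe here. The 3 names read one locus and count as 1 observation. Other pairs within 200 kb were Utf1 and Msx3, 102.8 kb apart on chromosome 7, and Fbxw21 and Fbxw13, 39.8 kb apart on chromosome 9. Cass4 and Tcfap2c lay 125.5 kb apart on chromosome 2. How often other names on the array lie this close was not counted.

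The same RNA was also read by other probes of the same genes. Of the members, 35 had 46 further probes, and 34 of these probes were well above background on all NGN3+ arrays. NGN3+ was the highest sorted group for 32 of the 34, and 23 reached a height of 1, with a median of 1.15. With normexp background correction 3 of the 34 reached that height. The 2 exceptions were those of Sh2d2a and Mtif3. The second probe of Upp1 stood at −3.26 in GFRα1+, −1.97 in NGN3+ and −5.59 in KIT+ cells, and that of Isg15 at −4.92, −2.95 and −6.31.

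By kind of name, 88 members had a gene symbol, or 0.474% of such names on the array. A further 11 were predicted or clone-named genes, and 17 were accession, probe or interval names. Noncoding intervals gave 8 members of 4610, or 0.174%, against 0.34% of other names. RefSeq gave a current symbol for 96 members. No member was found among 1105 olfactory receptor names, against 0.474% of all gene symbols. The rule barred names with an NGN3+ mean under −2, and 16756 of 36413 names reached that level. This absence therefore does not set the family apart.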

How the data were processed

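Total RNA (25 ng) was labelled with Cy3 and hybridised to SurePrint G3 Mouse 8x60K arrays. The authors deposited scanner files with the processed signal, a background-subtracted intensity on a linear scale, and flags for each spot, made with Agilent Feature Extraction (10.7.3.1 per the submitters' notes, 10.7.1.1 also in file headers). They also deposited a table of log2 values. Set against the scanner intensity, this table is log2 of the processed signal minus the 75th percentile of each array, with no centring of genes. At least 99.8% of probes on every array lay within 0.01 of that constant, and column medians were −3.85, −3.85 and −3.67 (GFRα1+), −3.57, −3.55 and −3.49 (NGN3+), −3.50, −3.64 and −3.62 (KIT+) and −3.46, −3.45 and −3.49 (whole testes). The log2 table gave the main values. The study's methods name GeneSpring and, for comparisons of groups, a t-test corrected by Benjamini-Hochberg.

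Groups and replicate numbers came from the labels. One probe stood for each gene name, that with the highest mean over the 9 sorted arrays. The only test, KIT+ against GFRα1+, was made with limma 3.58.1 in R 4.3.3 (lmFit and eBayes over the 9 sorted arrays, Benjamini-Hochberg over all genes tested, threshold 0.05), on genes well above background on all 3 arrays of either group. The script was tested on simulated data. Between 50.2% and 65.2% of probes were well above background on an array, and the number of arrays limits the precision. The 3 samples of each sorted cell type came from different animals. Whether NGN3+ and KIT+ samples, both from Ngn3-EGFP mice, shared animals is not stated. GFRα1+ arrays 1 and 2 and whole testes array 1 shared a slide, GFRα1+ array 3 shared one with all NGN3+ and KIT+ arrays, and whole testes arrays 2 and 3 lay on another. Correlations between arrays of a group were 0.986 to 0.994 over the genes tested.

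The members, lists and tests were chosen with earlier results of these data known. The rule for named genes took Rarg and Neurog3, the 20 members with a symbol and the largest peak height, the 10 with the highest NGN3+ mean, members in a gene list or in a symbol family with at least 2 members, the 6 largest called differences in each direction among members with a symbol and the 5 genes on each side of the threshold. One gene that the rule took is not reported here. Other genes were named for their known role after their values were seen. Gene symbols are those of the array, with RefSeq names (GRCm38.p6) where they have changed. The aligning of probes to mm9 is that of the files. Alternatives were other scalings and background corrections, other filters and probes, omission of each sorted array, the slide or the replicate number as a block, the methods' t-test and a fit of all 12 arrays.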

Additional observations from a re-analysis of the deposited data

How the results depend on the processing

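Scanner values without outlier spots, which were left out only where another spot of the probe remained, gave 114 members, all among the 116. Quantile normalization gave 115, of which 100 were among the 116. With the 75th percentile of only those probes that were well above background on all 12 arrays, there were 64, 47 of them among the 116, since that scaling lowered the NGN3+ levels of members by a median of 2.82, and 68 of the 69 members lost then fell below the level of −2. All 116 still had a height of at least 1. It also moved the median KIT+ minus GFRα1+ difference of all genes from −0.15 to −0.02. With normexp background correction and an offset of 50 there were 69 members, 63 of them among the 116. Of the 53 members lost, 52 had a height under 1, and 64 of the 116 kept a height of at least 1. The median difference to whole testes was then 2.03, and 3 other probes reached a height of 1. The cause was not tested. A difference of at least 2 left 17 members. Leaving out 1 array gave 83 to 153 members, of which the progenitor list held 2 to 5. Only the slide of the NGN3+ and KIT+ arrays left 3 of that list. With 1 array left out, heights ran from −0.37 to 2.46 for Impdh1 and from −0.029 to 3.01 for Mtif3, lowest without NGN3+ array 1, and from −0.099 to 5.53 for Ankrd33, lowest without NGN3+ array 3.

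Members lower in KIT+ than in GFRα1+ cells numbered 57 to 81 over the alternatives. Members higher numbered 0 to 2 when 1 array was left out, with 0 without GFRα1+ array 1 and 0 without KIT+ array 1, 0 on that slide alone and 0 with the slide as a block, and 1 with quantile normalization, normexp, no filter on dim probes, the methods' t-test or all 12 arrays in the fit. The replicate numbers did not pair the samples (correlations of the deviations of same-numbered GFRα1+ and KIT+ arrays were −0.03, 0.20 and 0.05). With the replicate number as a block, 69 members were lower and 2 higher. Leaving out the 11 members with 1 bright NGN3+ array, an alternative chosen after seeing the data, left 73 of 100 lower and 2 higher. Under all alternatives together, 59 of the differences computed for named genes lost their call and 7 gained one, with no reversal.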
